A study of Astyanax mexicanus with 8 samples.

Results

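The mitosis, kinesin and kinetochore genes of the Mexican tetra, Astyanax mexicanus, were followed across spheroids grown from 2 liver-derived cell lines of this fish. Members were chosen by gene name alone: every row of the expression table used here that is named as a kinesin (kif or kifc), a centromere protein (cenp), a BUB checkpoint protein, an Aurora kinase, PLK1 or PLK4, a B-type cyclin, CDC20, CDC25, a subunit of the NDC80 complex or of condensin, and a short list of single names such as top2a, cdk1, tpx2, ttk and anln. The rule found 91 of the 27420 genes in the table. Of these, 61 were grouped under roles in cell division, and 1, aurkaip1, entered by its name alone. The remaining 29 are kinesins not listed as mitotic, most of them best known for transport, signalling or cilia.

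A cell that enters mitosis activates the kinase CDK1 with its B-type cyclins, packs its chromosomes with condensin and topoisomerase II, and attaches each centromere to spindle microtubules through the kinetochore. The spindle checkpoint holds the anaphase-promoting complex (APC/C) in check until all chromosomes are attached. Mitotic kinesins then slide, shorten or bundle microtubules, and the RNAs of many of these genes accumulate as cells approach division, so that they are often read together as a proliferation signature. Adult liver cells divide rarely, whereas cultured lines divide continuously. Other kinesins carry vesicles and organelles along microtubules or build cilia in cells that may not be dividing at all.

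SFL is the line from the liver of the surface-dwelling form and CFL is the line from the cave-dwelling form, whose libraries are titled Pachon, a cave population, both recorded as wild type. Cells of each line were placed at 10000, 25000, 50000 or 100000 per well in round-bottomed plates to which cells do not attach, were left to grow as free spheroids in complete medium at 27 °C, and were recorded at day 28. Polyadenylated RNA of each line and density was read as 1 library of 75-base single reads, which gives 8 libraries, 4 per line. The labels name no other treatment, and each form is represented by 1 line, so that cave origin and the line itself cannot be told apart. The labels name no second culture at any density, so the 4 densities stand as the replicates of a line. P-values for the line difference measure the spread of libraries around a linear trend in log2(density). Those for size groups measure the spread between densities placed in the same group of a line. Wherever 4 values are listed for a line, they are in the order 10000, 25000, 50000 and 100000 cells per well.

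Expression was deposited as TPM, the share of a library's transcripts that come from a gene after division by transcript length, scaled to 1000000 per library. Levels of different genes can therefore be set side by side, but the number of reads behind a value is unknown, and no counting interval is given. In bulk RNA, fewer dividing cells and less RNA per dividing cell cannot be told apart. Between 17819 and 19408 genes had a value above 0 in a library. Of 16 hepatocyte marker genes found in the table, 7 stayed under 1 TPM in all 8 libraries. Among these were hnf4a, the master regulator of hepatocyte identity, and ttr. Others were present in every SFL library, such as fgb at 34.33 to 43.84 TPM, tfa at 4.21 to 9.95 and apoa1a at 3.11 to 5.22. In CFL fgb was at 1.73 to 6.42 TPM, tfa at 1.16 to 4.77 and apoa1a at 0.2 or less. The summed TPM of the 16 markers was 280 to 355 in SFL, most of it from rbp4, and 5.58 to 14.5 in CFL. Of 7 epithelial marker genes, led by the keratins krt8, krt18a.1 and krt4, the sum was 8961 to 11509 TPM in SFL and 825 to 1234 in CFL. That of 11 mesenchymal marker genes, led by tagln, col1a2 and acta2, was 562 to 668 and 184 to 315 TPM. Some markers of these lists went against the sums. In SFL and CFL, sox9a was at 0.96 to 2.08 and 22.55 to 31.77 TPM, pdgfra at 0.06 to 0.25 and 5.66 to 20.38, and pdgfrb at 0.22 to 1.16 and 2.62 to 10.55. Endothelial markers summed to 48.5 to 90.8 TPM in SFL and 14.9 to 30.1 in CFL, nearly all from kdrl, and blood markers to at most 2.6 TPM in either line. The lines therefore differed in cell-type markers as well, and the part of that difference in the line results was not tested.

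Most genes with a role in division were higher in CFL. Summed over the 61 of them, expression was 555, 696, 453 and 424 TPM in SFL and 1116, 1202, 896 and 872 TPM in CFL, or 532 ± 123 against 1021 ± 163 (SD, n = 4 each). The lowest CFL sum lay above the highest SFL sum, and the CFL mean was 1.92 times the SFL mean. The summed TPM of the 29 other kinesins went the other way, 415 ± 72.4 in SFL and 323 ± 75.0 in CFL, with overlapping libraries. Abundant genes weigh most in such a sum, and single genes of this group went both ways.

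**Figure D1:**
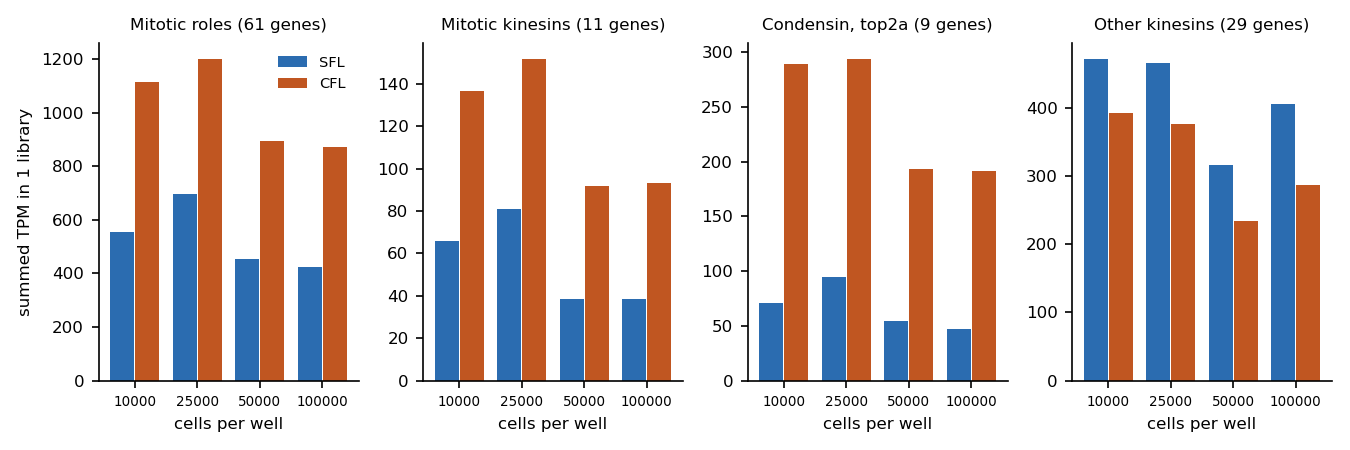
Summed TPM (vertical axes, starting at 0) by seeding density (horizontal axes, cells per well), with 1 bar per library, for all 61 genes with a role in division, the mitotic kinesins and condensin with top2a among them, and the 29 other kinesins. For the division genes every CFL library, 872 to 1202 TPM, lies above every SFL library, 424 to 696 TPM, whereas the other kinesins of the 2 lines overlap.

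Each gene was then compared between lines with limma on log2(TPM + 1), with log2(density) as a covariate. The 13783 genes with a mean of at least 1 TPM were tested, and a gene was called at a Benjamini-Hochberg adjusted p under 0.05. Differences on this scale understate the change of genes with low TPM. Of the 91 members, 80 passed the filter on mean TPM, 8 of them although 1 line had a mean under 1 TPM: cenpj, cenpl, cenpp, kif13bb, kif17, kif1aa, kif21a and kifc3. In CFL, 50 of the 80 were higher and 8 lower, with 22 uncalled, against 27.6% of all tested genes called higher and 31.3% called lower. The 8 members that passed through 1 line alone held 5 of the higher and 2 of the lower calls, and without them 45 of 72 were higher and 6 lower. The median difference was 0.61 (log2, CFL minus SFL) over the 80 tested members and -0.04 over all tested genes. In 37 of the 80 members all 4 CFL libraries lay above all 4 SFL libraries (22.2% of all tested genes), and in 8 all lay below (26.8%). Members that passed the filter through 1 line alone are included, such as kif21a and kif1aa above and kif13bb and kifc3 below. Among the 60 tested genes with a role in division, 45 were higher, 2 lower and 13 uncalled, with a median difference of 0.69. The higher ones include cenpl and cenpj, which passed the filter with 1 line under 1 TPM. The higher share of calls was present within the smaller spheroids (10000 and 25000 cells), where 47 members were called higher and 9 lower against 27.8% and 30.0% of all tested genes, and within the larger ones (50000 and 100000 cells), where the counts were 50 and 9 against 26.2% and 30.8%. After the rescaling described with the size comparison, 54 members were higher and 9 lower, against 31.3% and 31.8%.

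The call of 37 of the 50 higher members and of all 8 lower members held whichever single library was left out. It was lost without at least 1 library for 13 members: aurkb, birc5a, cenpe, cenpj, ncaph, smc2, plk1, pttg1, kif11, kif14, kif20ba, kif17 and ttk. CFL stayed the higher line in each of these, and the counts ran from 39 to 53 higher and from 8 to 9 lower. Members that passed the filter through 1 line alone are in these counts. They are cenpl, kif1aa and kif21a among the 37, cenpj and kif17 among the 13, and kif13bb and kifc3 among the 8. For them a call that held is a description only. With density as a block, 7 members uncalled without it were called at the same difference, namely ncapg2, ccnb2, kif20a, kif13ba, bub1bb and prc1b as higher and the KIF1C gene ENSAMXG00000002713 as lower (-0.74), and cenpj was no longer called (0.39). Without the filter on mean TPM, aurkb (0.53), cenpe (0.59) and kif20ba (0.60) lost their calls, and 51 members were higher, 47 of them among the 50.

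**Figure D2:**
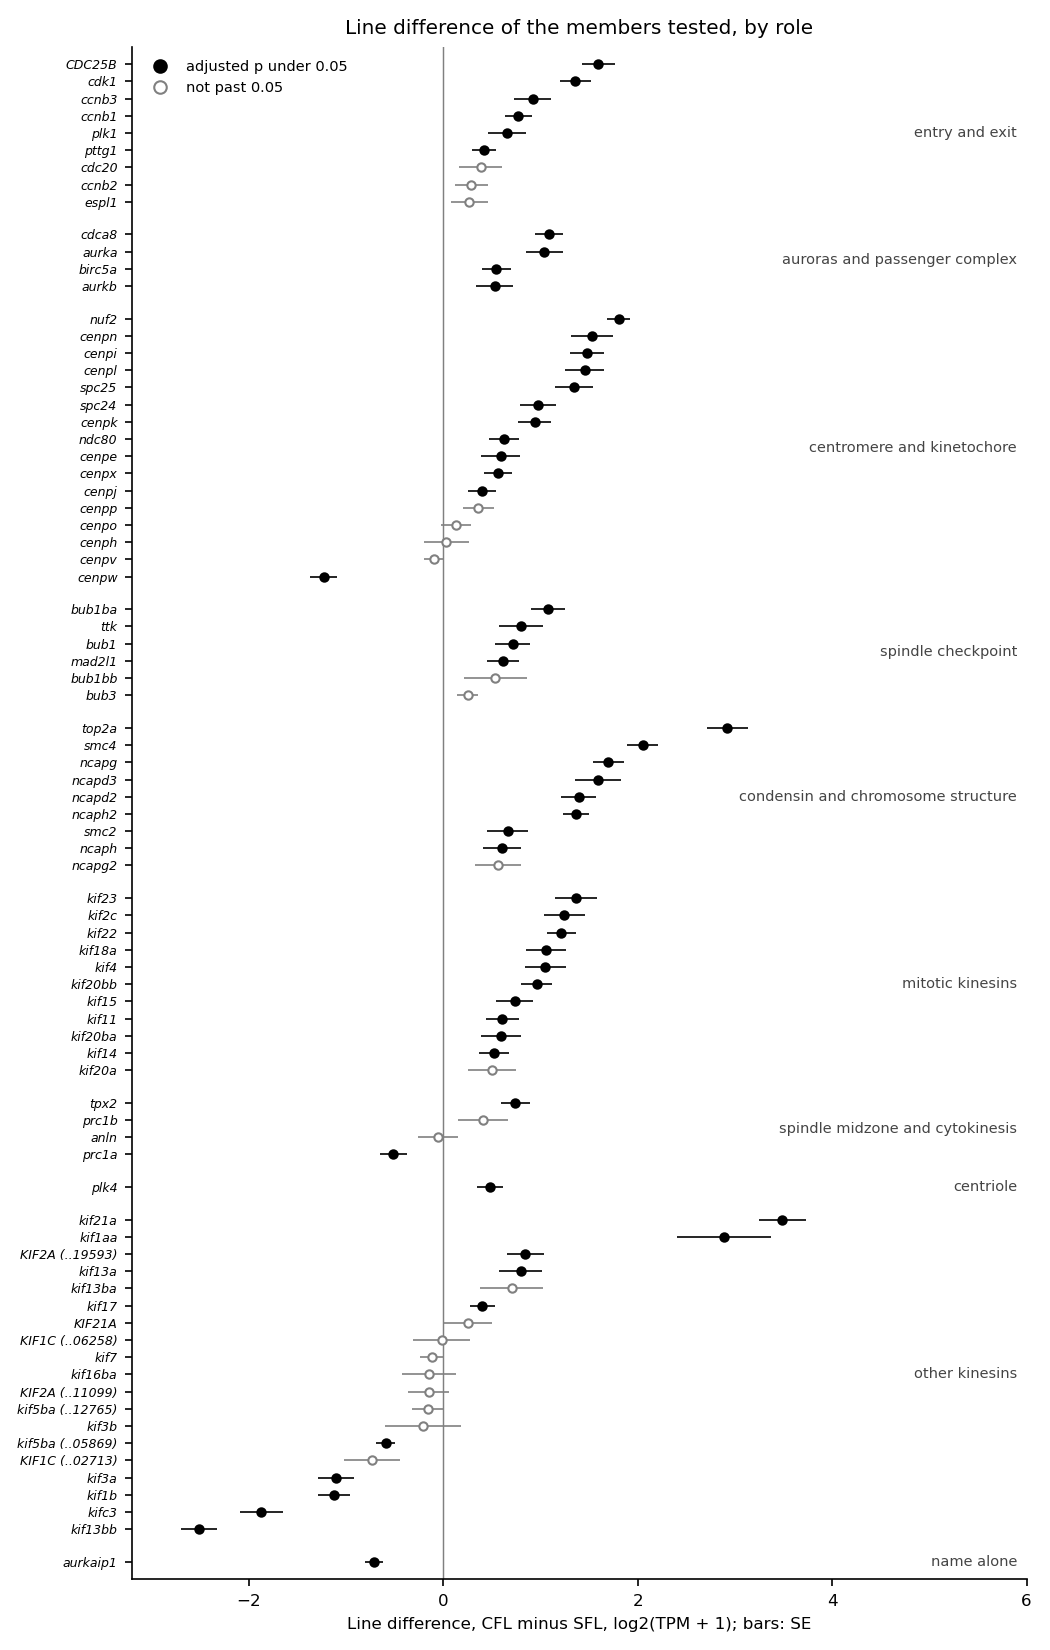
Difference between lines (horizontal axis, log2(TPM + 1), CFL minus SFL, bars showing the SE of the limma fit with log2(density)) for the 80 tested members, ordered within each role. Filled points have an adjusted p under 0.05 in limma. Condensin and chromosome-structure genes have the largest median among the roles (1.39), the other kinesins spread from -2.51 to 3.49, aurkaip1 stands under "name alone", and digits in brackets are the ends of gene identifiers that share a name.

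Of the genes that start and end mitosis, 6 of 9 tested were higher in CFL and none was lower, with a median difference of 0.66. This count and those of the roles below are to be set beside 27.6% of all tested genes called higher and 31.3% called lower. The transcript of cdk1 (ENSAMXG00000020354), the kinase that drives entry into mitosis, was at 14.21, 19.82, 11.89 and 10.9 TPM in SFL and 42.94, 43.5, 32.39 and 31.21 TPM in CFL. Every CFL library exceeded every SFL library, the means differed 2.64-fold (14.2 ± 3.99 against 37.5 ± 6.61 TPM), and on the log2 scale by 1.36, with SE 0.16 and limma adjusted p = 0.000114. CDC25B, the phosphatase that removes the inhibitory phosphates of CDK1, was higher by 1.59. The cyclin partners of CDK1 were less uniform. Cyclin B1, ccnb1, stood at 20.19, 24.68, 16.07 and 13.05 TPM in SFL and 38.95, 35.16, 30.13 and 23.75 TPM in CFL; the CFL library at 100000 cells fell just below the SFL library at 25000, and the difference of 0.77 (SE 0.14) had a limma adjusted p of 0.00131. ccnb3 was also higher (0.92), whereas ccnb2 did not pass the test, at 0.29 with a 95% interval of -0.11 to 0.69.

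The kinase plk1, which acts from entry to cytokinesis, was at 13.25, 14.6, 8.8 and 5.54 TPM in SFL and 19.99, 22.6, 12.12 and 12.62 TPM in CFL. The lines overlapped, since the larger CFL spheroids lay below the smaller SFL ones. Its difference of 0.66 (limma adjusted p = 0.018) was no longer called without SFL at 10000, SFL at 100000 or CFL at 100000, where it was 0.53 to 0.60. Securin (pttg1), which keeps separase inactive, was higher by 0.41, and this call was lost without SFL at 25000 or CFL at 25000 (0.35 to 0.39). Separase itself (espl1, 0.27) and the APC/C activator cdc20 (0.38, 95% interval -0.13 to 0.90) were uncalled. The remaining member of this group, cdc25d, was at 0.6 TPM or less in every library and was not tested.

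All 4 members of the Aurora and chromosomal passenger group were higher in CFL. The spindle-pole kinase aurka was at 8.32, 9.5, 4.26 and 6.69 TPM in SFL and 20.06, 17.01, 12.43 and 12.9 TPM in CFL, without overlap, a difference of 1.04 (SE 0.19). For the passenger complex, which corrects faulty attachments, borealin (cdca8) differed by 1.09, survivin (birc5a) by 0.54 and the kinase aurkb by 0.53. The aurkb libraries overlapped, at 7.71 to 15.64 TPM in SFL and 14.75 to 21.87 TPM in CFL. Its call was lost without SFL at 10000, SFL at 100000, CFL at 25000 or CFL at 100000 (0.35 to 0.49), and that of birc5a without SFL at 10000 (0.48). tpx2, which activates and places Aurora A on the spindle, was higher by 0.74, and plk4, the kinase that starts centriole duplication, by 0.48.

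Among centromere and kinetochore genes, 11 of 16 were higher in CFL, 1 was lower and 4 were uncalled, against 27.6% higher and 31.3% lower over all tested genes. The 11 include cenpl and cenpj, which passed the filter on mean TPM with 1 line under 1 TPM. The 4 subunits of the NDC80 complex, the rod that grips the microtubule end, were all higher, by unequal amounts. nuf2 (ENSAMXG00000005348) was at 12.01, 14.04, 10.04 and 9.07 TPM in SFL and 45.17, 45.41, 41.01 and 34.94 TPM in CFL. The lines were well apart, with means of 11.3 ± 2.2 and 41.6 ± 4.9 TPM, a 3.69-fold ratio and a log2 difference of 1.80, with SE 0.12 and limma adjusted p = 3.7e-06. Its direct partner in the complex, ndc80, differed by 0.62 (SE 0.16), from a mean of 6.09 ± 1.47 to 9.84 ± 1.8 TPM, and the other end of the rod, spc24 and spc25, by 0.97 and 1.35. The levels of the 4 subunits also differed, with spc25 highest in both lines (24.2 ± 7.96 and 61.0 ± 6.61 TPM).

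Within the constitutive centromere network, the proteins that sit on centromeric chromatin throughout the cycle, cenpn (1.53), cenpi (1.48), cenpk (0.94) and cenpx (0.56) were higher in CFL. The value of cenpl (1.46) is a description only, since it passed the filter with 1 line under 1 TPM. cenph (0.03), cenpo (0.13) and cenpp (0.36) did not pass the test, nor did cenpv (-0.09), which lies outside that network. The exception was cenpw (ENSAMXG00000038602), the histone-fold partner of CENP-T, at 22.92, 37.47, 35.04 and 30.78 TPM in SFL and 11.53, 12.3, 13.64 and 13.28 TPM in CFL. Every CFL library lay below every SFL library, and the difference was -1.23 (SE 0.14, limma adjusted p = 0.000109). The kinetochore motor cenpe (0.59) and the centriole protein cenpj (0.39), which carries a centromere name only, were called higher, but each call was lost in 6 of the 8 analyses that left out 1 library, at 0.46 to 0.65 and 0.31 to 0.42. For cenpe only the analyses without SFL at 25000 or CFL at 50000 kept the call, and for cenpj only those without SFL at 50000 or CFL at 100000. Since cenpj also passed the filter with 1 line under 1 TPM, its difference is a description.

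In the spindle checkpoint, 4 of 6 genes were higher in CFL, against 27.6% of all tested genes. The BUBR1 kinase copy bub1ba was at 2.1, 2.8, 1.57 and 1.71 TPM in SFL and 6.67, 7.08, 4.14 and 4.05 TPM in CFL, without overlap, a difference of 1.07 (SE 0.17). bub1bb, the other gene of that name, differed by 0.53 with an interval of -0.21 to 1.28 and was uncalled. The kinases bub1 (0.71) and ttk (0.80) and the inhibitor mad2l1 (0.61) were called higher, whereas bub3 (0.25), which carries BUB1 and BUBR1 to the kinetochore, was not. The ttk call was lost without SFL at 10000, SFL at 100000 or CFL at 100000 (0.71 to 0.77).

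Condensin and chromosome-structure genes showed the largest median difference of any role, 1.39, and 8 of 9 were higher in CFL, against 27.6% of all tested genes. Their summed TPM was 70.8, 94.9, 54.8 and 47.0 in SFL and 289, 294, 194 and 192 in CFL, a 3.62-fold ratio of means. DNA topoisomerase II alpha (top2a, ENSAMXG00000012125), which untangles sister chromatids, was at 8.1, 11.2, 4.86 and 3.56 TPM in SFL and 74.78, 72.83, 43.58 and 38.36 TPM in CFL. The lowest CFL library lay far above the highest SFL library, the means were 6.93 ± 3.43 and 57.4 ± 19.1 TPM, and the difference of 2.92 (SE 0.21, limma adjusted p = 6.03e-06) was the largest among genes with a role in division. The condensin ATPase smc4 (ENSAMXG00000013950) was at 18.55, 29.33, 18.23 and 17.17 TPM in SFL and 99.16, 92.79, 79.76 and 79.54 TPM in CFL. The lines did not overlap, the ratio of means was 4.22, and on the log2 scale they stood 2.05 apart with SE 0.16 and limma adjusted p = 1.09e-05.

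smc2 pairs with smc4 in both condensins, and its values in the 2 lines were closer together: 10.8, 14.28, 7.53 and 7.07 TPM in SFL and 20.89, 22.76, 10.68 and 11.85 TPM in CFL. These ranges overlapped, and the difference of 0.66 (SE 0.21) was called with all libraries but in only 2 of the 8 analyses that left out 1, those without SFL at 25000 or CFL at 50000 (0.52 to 0.69 in the other 6). The non-SMC subunits split in the same uneven way. In condensin I, ncapg (1.70) and ncapd2 (1.39) differed more than ncaph (0.61). In condensin II, ncapd3 (1.59) and ncaph2 (1.36) differed more than ncapg2 (0.56), which was uncalled. For ncapg the libraries were at 4.71, 6.04, 3.99 and 3.18 TPM in SFL and 18.48, 20.44, 13.9 and 13.94 TPM in CFL, far apart at every density. The ncaph call was lost in 5 of the 8 analyses (0.48 to 0.60), those without SFL at 10000, 50000 or 100000 or CFL at 25000 or 100000. Differences between subunits were not themselves tested.

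Of the 11 mitotic kinesins, 10 were higher in CFL, against 27.6% of all tested genes, and the median difference of the 11 was 0.96. The centralspindlin motor kif23, which bundles midzone microtubules, was at 9.98, 12.28, 5.48 and 5.37 TPM in SFL and 25.69, 31.29, 16.38 and 16.59 TPM in CFL. Its lines did not overlap, and it had the largest difference of the group, 1.36 (SE 0.21). The microtubule depolymerase kif2c followed at 1.25, the chromosome-arm motor kif22 at 1.21, kif18a, which dampens chromosome oscillation, at 1.06, and the chromokinesin kif4 at 1.05. kif11, the motor that pushes spindle poles apart, differed by 0.61 and lost its call without SFL at 10000 (0.48). kif14 (0.52) lost it without SFL at 10000 or CFL at 25000 (0.44 to 0.48), and kif20ba (0.60) in 6 analyses (0.48 to 0.63), all but those without SFL at 25000 or CFL at 50000. kif20a, which carries the passenger complex to the midzone, was uncalled at 0.50.

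Of the 4 genes grouped under the midzone and cytokinesis, tpx2 was the 1 called higher, and prc1a was lower. The furrow scaffold anln was at 17.96, 23.68, 11.31 and 11.27 TPM in SFL and 18.59, 20.6, 10.71 and 11.19 TPM in CFL. The lines overlapped throughout, and the difference was -0.06 with a 95% interval of -0.54 to 0.42. prc1a, a cross-linker of antiparallel midzone microtubules, was lower in CFL (-0.51, limma adjusted p = 0.0112, without overlap), while its paralog prc1b was uncalled at 0.40 (95% interval -0.19 to 0.99).

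**Figure D3:**
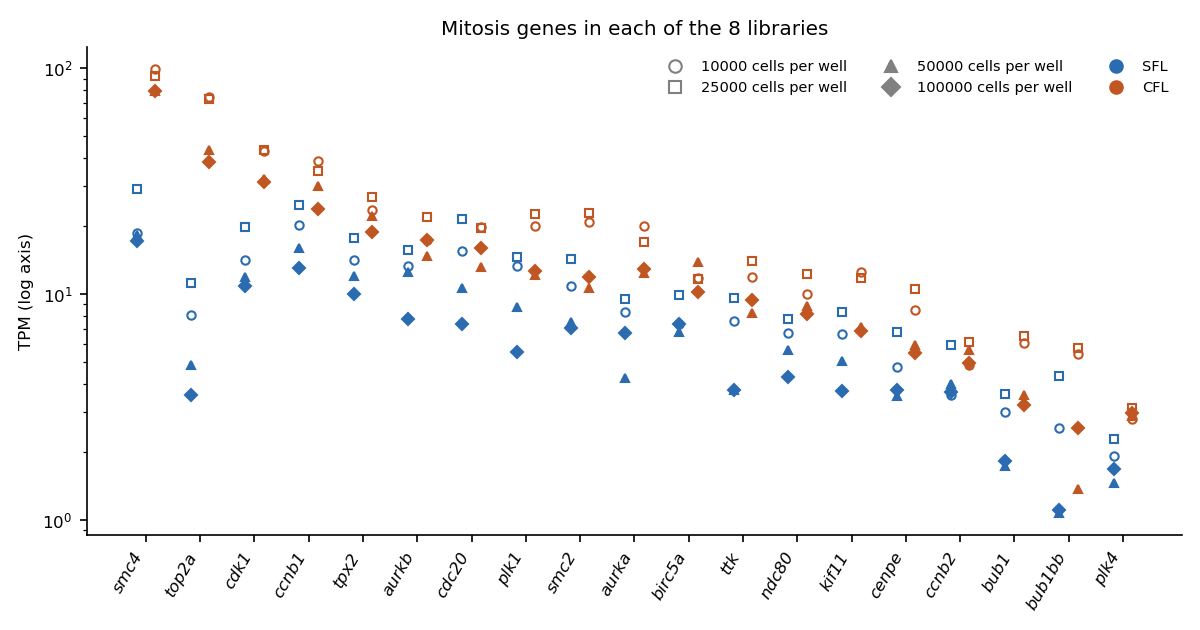
TPM (vertical log axis) of the 19 mitosis genes fixed by name in each of the 8 libraries, with SFL in blue, CFL in orange and a symbol for each density. For top2a, smc4 and cdk1 every CFL library lies above every SFL library, whereas ccnb2, cdc20 and bub1bb overlap.

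Of the 19 tested kinesins not listed as mitotic, 5 were higher in CFL, 5 lower and 9 uncalled, with a median of -0.14. Over all tested genes 27.6% were higher and 31.3% lower, so neither share was above that of the whole table. Among the higher calls, kif21a, kif1aa and kif17 passed the filter on mean TPM through CFL alone. Among the lower calls, kif13bb and kifc3 passed it through SFL alone. The most extreme differences of any member, those of kif21a and kif13bb, are therefore descriptions. kif21a (ENSAMXG00000017720), a kinesin that restrains microtubule growth in mammals, was listed at 0.01, 0.02, 0 and 0.07 TPM in SFL and 16.07, 14.25, 6.33 and 8.11 TPM in CFL. SFL was at 0.07 TPM or less and CFL at 6.33 or more, a difference of 3.49 (SE 0.24). The gene listed as KIF21A (ENSAMXG00000005434) was at 20.21 to 49.59 TPM in SFL and 30.63 to 42.46 in CFL, overlapping and uncalled (0.25). kif1aa (ENSAMXG00000004403), of the family of axonal vesicle motors, was listed at 0.06, 0, 0 and 0 TPM in SFL and 17.42, 14.94, 1.75 and 2.91 TPM in CFL, a difference of 2.89 (SE 0.49). Both genes passed the filter on mean TPM through CFL alone, so their differences are given as descriptions with no p, and no fold is given since SFL libraries were listed at 0.

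In the opposite direction, kif13bb (ENSAMXG00000018566) was at 6.15, 7.74, 4.19 and 5.89 TPM in SFL and 0.08, 0.29, 0.17 and 0.29 TPM in CFL, a difference of -2.51 (SE 0.18). Its paralog kif13ba was uncalled, with the larger mean in CFL (0.71, 95% interval -0.04 to 1.45). The minus-end motor kifc3 was at 8.84, 7.72, 3.39 and 5.18 TPM in SFL and 1.44, 0.89, 0.45 and 0.95 TPM in CFL, a difference of -1.87 without overlap. Both genes passed the filter through SFL alone, and their differences too are descriptions with no p. The mitochondrion and vesicle motor kif1b was lower in CFL by a log2 difference of -1.12 and a ciliary motor subunit, kif3a, by -1.10; kif3a was at 79.47, 78.71, 52.83 and 72.42 TPM in SFL and 43.91, 38.43, 21.65 and 28.7 TPM in CFL, every CFL library below every SFL library. Its partner in the kinesin-2 motor, kif3b, did not follow it, at 15.43, 15.95, 4.0 and 9.12 TPM in SFL and 15.53, 15.01, 3.56 and 5.58 TPM in CFL, with a difference of -0.21 and an interval of -1.11 to 0.69.

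The most abundant member was a conventional kinesin heavy chain, kif5ba (ENSAMXG00000005869), at 142.57 to 170.44 TPM in SFL and 92.88 to 112.96 TPM in CFL (-0.59, no overlap). The second gene of that name (ENSAMXG00000012765) was uncalled at -0.16. kif13a (0.80), kif17 (0.40) and 1 of the genes named KIF2A (ENSAMXG00000019593, 0.84) were higher in CFL, and the kif17 call was lost without 5 of the 8 libraries in turn (0.36 to 0.41), namely SFL at 25000 or 50000 and CFL at 10000, 50000 or 100000. Since kif17 also passed the filter with 1 line under 1 TPM, its difference is a description. Genes that share a name may share reads, and how the deposited values divide them is uncertain. Of the 10 kinesins that did not reach a mean of 1 TPM, KIF5A was at 0 in every SFL library and kif3ca and kif3cb reached at most 1.37 and 1.89 TPM. aurkaip1, a mitochondrial protein known to bind Aurora A, was lower in CFL, at 42.99, 40.95, 49.11 and 45.72 TPM in SFL and 26.37, 27.64, 28.25 and 25.25 TPM in CFL, without overlap (-0.71, limma adjusted p = 0.000249).

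Other genes of the same pathways, which the name rule does not take in, gave mixed counts, to be read against the 27.6% of all tested genes called higher and the 31.3% called lower. Among 19 tested genes for cyclin A, the brakes on CDK1 and their cofactors, 10 were higher in CFL and 2 lower, with a median difference of 0.55. The embryonic and stem-cell kinase melk went from 1.87 ± 0.55 TPM in SFL to 13.4 ± 3.1 in CFL (2.32). The CDK1-inhibiting kinase pkmyt1 (1.42) and cyclin A2 (ccna2, 1.22) were also higher. The CDK inhibitor cdkn1bb was lower (-1.29), with a mean of 7.65 TPM in SFL and 2.59 in CFL. Its more abundant paralog cdkn1ba was higher (0.71), at 15.9 and 26.4 TPM. Of 17 genes of the spindle, centrosome and cytokinesis, 9 were higher and none lower (median 0.58), led by hmmr (1.69). Among the 9, kntc1 (0.48) is also counted as higher with the other kinetochore and centromere genes below. Of 29 replication genes, 17 were higher and 2 lower (median 0.49), and the sliding clamp pcna was 1 of the 2, at 92.5 ± 19.4 TPM in SFL and 52.3 ± 3.37 in CFL (-0.79).

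Other lists had medians nearer to 0, and counts are again to be set beside 27.6% higher and 31.3% lower over all tested genes. Of 17 APC/C genes, 5 were higher and 8 lower (median -0.16). ube2s, the enzyme that extends ubiquitin chains for the APC/C, was higher by 0.98. Both genes named ube2c, the enzyme that starts those chains, were lower, ENSAMXG00000000764 at -1.24 and ENSAMXG00000029052 at -0.27. Cohesin counted 3 higher and 3 lower of 12 (median 0.04), and the other kinetochore and centromere genes 4 higher and 3 lower of 19 (median 0.19). The transcription regulators of cell-cycle genes, activators and repressors together, counted 5 higher and 3 lower of 20 (median 0.18). Among the higher were mybl2b, a driver of G2 and M genes (3.12 ± 1.39 and 6.61 ± 1.15 TPM), and the repressor rbl1 (0.85). Among the lower was tfdp1a (-1.03), with a mean of 45.9 TPM in SFL and 22.1 in CFL.

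The next comparison set the larger spheroids, seeded with 50000 or 100000 cells, against the smaller ones, seeded with 10000 or 25000, over both lines. This split was chosen with earlier results of these data known, in which the densities of each group lay close together. Its calls are therefore not an independent test of size. As deposited, 51 of the 80 members were lower in larger spheroids and none higher, but 46.2% of all tested genes were lower and 3.48% higher. Every value here therefore has to be read against a shift of the whole table. The median difference of all tested genes was -0.30 (log2, larger minus smaller), that of the members -0.49 and that of the 60 genes with a role in division -0.47, of which 37 were lower. When each library was rescaled by median-of-ratios factors, which ran from 0.788 for CFL at 50000 to 1.20 for SFL at 10000, the median of all genes moved to 0.04 and that of the members to -0.12. After rescaling, 21 members were lower and 7 higher, beside 22.2% and 24.7% of all tested genes. The 21 were all among the 51 of the deposited scale.

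**Figure D4:**
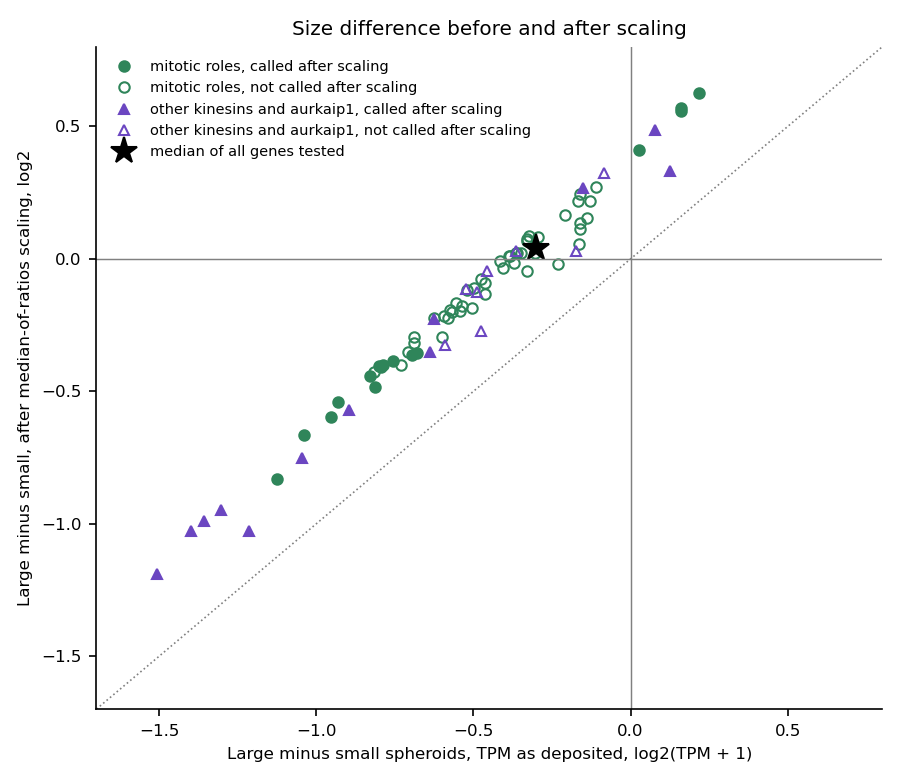
Difference between larger and smaller spheroids (log2(TPM + 1), larger minus smaller) for each of the 80 tested members, as deposited on the horizontal axis and after median-of-ratios rescaling on the vertical axis, with circles for genes with a role in division and triangles for the others; the star is the median of all tested genes and the dotted line marks equal values. Most points lie left of 0 as deposited (median -0.49), and after rescaling they straddle 0 (median -0.12).

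Of the genes with a role in division, 12 of 60 were lower in larger spheroids after rescaling, against 22.2% of all tested genes, and these 12 were also lower as deposited. The count is not above the share of the whole table, so the 12 are listed as single genes. kif20a was at 10.81, 12.15, 4.36 and 4.43 TPM in SFL and 14.54, 14.89, 6.74 and 8.52 TPM in CFL. In both lines each larger spheroid lay below each smaller one, and the difference was -1.04 as deposited (SE 0.11, limma adjusted p = 0.00102) and -0.66 after rescaling. bub1bb followed with -1.12 and -0.83, at 2.55, 4.35, 1.07 and 1.1 TPM in SFL and 5.4, 5.77, 1.37 and 2.54 TPM in CFL, again without overlap within a line. top2a (-0.93 and -0.54), ncapd3 (-0.95 and -0.60), ncapg2 (-0.81 and -0.48), smc2 (-0.80 and -0.41), kif23 (-0.83 and -0.44), kif4 (-0.79 and -0.40), ttk (-0.76 and -0.39), bub1 (-0.68 and -0.36), kif20ba (-0.69 and -0.36) and anln (-0.80 and -0.41) were the others.

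By role, condensin had 8 of 9 genes lower as deposited and 4 lower after rescaling, the mitotic kinesins 9 of 11 and 4, and the checkpoint genes 4 of 6 and 3, where 46.2% of all tested genes were lower as deposited and 22.2% after rescaling. The centromere and kinetochore genes had 5 of 16 lower as deposited and none after rescaling, where cenpv, cenpw and cenpx were higher (0.62, 0.56 and 0.57, against 0.22, 0.16 and 0.16 as deposited and uncalled), beside 24.7% of all tested genes. Entry and exit genes had 7 of 9 lower as deposited and none after rescaling, where pttg1 was higher (0.41). Thus cdk1 differed by -0.48 as deposited and by -0.08 after rescaling, and ccnb1 by -0.52 and -0.12. Calls as deposited were lost when 1 library was left out for 11 members: ndc80, nuf2, spc25, ncapg, ccnb3, kif21a, the second kif5ba gene, kif7, kifc3, prc1a and tpx2, whose differences were then between -0.55 and -0.27.

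The largest decreases with size were in other kinesins, of which 14 of 19 were lower as deposited (46.2% of all tested genes) and 9 after rescaling (22.2%). The vesicle motor KIF1C is listed by 2 genes, and both were lower: ENSAMXG00000002713 by a difference of -1.51 (-1.19 rescaled), at 10.35, 8.61, 2.4 and 3.4 TPM in SFL and 6.91, 4.5, 0.98 and 1.46 TPM in CFL, and ENSAMXG00000006258 by -1.30 (-0.95). In both lines the larger spheroids were all below the smaller ones. kif3b (-1.40 and -1.03) and kif13ba (-1.36 and -0.99) were likewise lower on both scales, and kif13ba was at 8.99, 10.02, 2.69 and 4.12 TPM in SFL and 19.99, 14.7, 4.47 and 7.16 TPM in CFL. For kif1aa (-1.21 and -1.03) SFL was listed at 0.06 TPM or less throughout, and CFL went from 17.42 and 14.94 to 1.75 and 2.91 TPM.

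Within SFL alone, 36 of the 80 members were lower in larger spheroids, against 25.8% of all tested genes (27.0% in either direction), and within CFL 36 were, against 34.0% (36.5% in either direction). After rescaling, 11 members in SFL and 14 in CFL were called in either direction, against 19.0% and 33.3%. These counts rest on 2 libraries against 2 in each line. Without SFL at 10000, 25000 or 50000 none of the 80 was called in SFL, and without CFL at 10000, 25000 or 50000 the CFL count was 2, 7 or 15. The SFL count was also 21 without SFL at 100000, 21 without CFL at 10000 and 22 without CFL at 25000.

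No difference between the lines in their size response was called by limma's interaction term: 0 of 80 members were called, as were 0.0% of all tested genes, with 3 members and 1132 genes at an unadjusted p under 0.05. The 3 members were kif1aa, whose size difference was -0.04 in SFL and -2.39 in CFL (interaction -2.34), kif21a (-1.01) and cenpx (0.52, limma adjusted p = 0.541). The SFL level of kif1aa and kif21a was 0.07 TPM or less at every density, which left SFL no room to fall. Their interactions are therefore descriptions with no p. For cdk1 the interaction was 0.09 with an interval of -0.42 to 0.61, and for top2a 0.19 with an interval of -0.40 to 0.79.

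Across the 4 densities, the highest library of most division genes was that at 25000 cells, although no gene was called between 25000 and 10000 cells. In SFL, 54 of the 60 tested had their highest library at 25000 cells, where 31.0% of all tested genes had theirs, and 55 were higher at 25000 than at 10000, or 91.67% against 42.86% of all tested genes. In CFL 40 of 60 were highest at 25000 cells, against 36.4% of all tested genes, 44 were higher at 25000 than at 10000, or 73.33% against 50.02%, and 39 genes were higher at 25000 in both lines. Relative to each gene's mean in a line, the median division gene stood at 0.14, 0.41, -0.17 and -0.31 (log2) in SFL and at 0.16, 0.26, -0.21 and -0.23 in CFL, while the median of all tested genes was 0.17, 0.13, -0.19 and -0.09 in SFL and 0.15, 0.17, -0.23 and -0.08 in CFL, so that in CFL it too was highest at 25000. The other kinesins did otherwise: 13 of 19 in SFL and 14 of 19 in CFL had their highest library at 10000 cells, against 47.1% and 39.4% of all tested genes. These are shares of genes in single libraries, and genes of 1 library are not independent.

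Tested gene by gene over both lines, 25000 against 10000 cells gave no call among the members by limma, nor in all tested genes, of which 0.0% were called (9 of 80 at an unadjusted p under 0.05, and 374 of 13783 genes). The first step that gave calls was 50000 against 10000 cells, with 36 members lower and none higher, against 40.1% of all tested genes lower, and after rescaling 9 lower and 8 higher, against 17.6% and 18.9%. Between 100000 and 10000 cells 29 members were lower, against 23.6% of all tested genes, and after rescaling 7 lower and 2 higher, against 8.18% and 8.36%. Between 100000 and 50000 cells 0 members and 0.0% of genes were called by limma (8 members at an unadjusted p under 0.05). A straight line through the logarithm of density called no member either (38 at an unadjusted p under 0.05, smallest limma adjusted p = 0.0888).

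**Figure D5:**
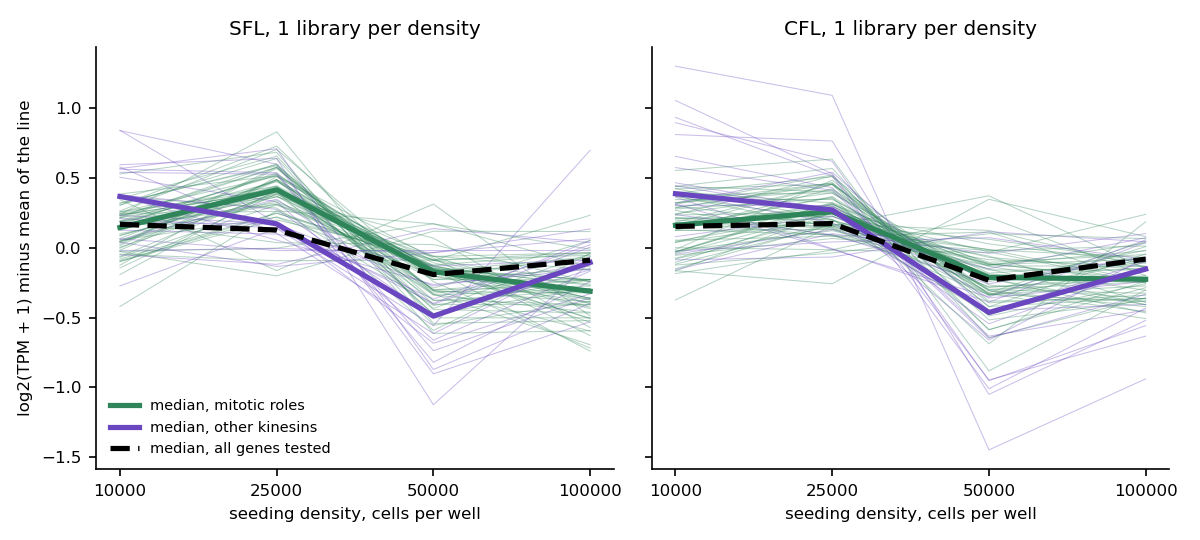
Level relative to each gene's mean within a line (vertical axis, log2(TPM + 1)) against seeding density (horizontal axis, cells per well) in SFL and CFL, with thin lines for single members and thick lines for the medians of the division genes, of the other kinesins and, dashed, of all tested genes. The median division gene is highest at 25000 cells in both lines (0.41 and 0.26), as is that of all tested genes in CFL (0.17), whereas the median of the other kinesins is highest at 10000.

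The genes whose pattern was most like the mean of the 19 mitosis genes fixed by name were sought among 7871 other genes by Pearson's r over the 8 libraries, as a description. The 5 most alike were xylb (r = 0.992), a xylulokinase, IDH2 (0.9916), the mitochondrial isocitrate dehydrogenase, dlgap5 (0.99), a spindle protein, hells (0.9894), a chromatin remodeller, and mcm6 (0.9873), a subunit of the replicative helicase. xylb was at 4.21, 5.52, 2.78 and 2.33 TPM in SFL and 12.29, 11.71, 7.62 and 6.4 TPM in CFL. All genes compared this way share the same 8 libraries, with their lines and densities.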

How the data were processed

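The deposited table holds TPM values per gene, made by the authors; their processing notes name STAR 2.7.3a and RSEM 1.3.0, and the genome build, annotation and strand setting are not given in the sources used here. The values keep no read counts, so depth is unknown. All 8 value columns were mapped to libraries, with 0 left unmapped. log2(TPM + 1) was fitted with limma 3.58.1 in R 4.3.3 over the 13783 genes with a mean of at least 1 TPM, after a test on simulated data, and calls used Benjamini-Hochberg adjustment. The line fit held log2(density) as a covariate, and the size fit held 4 groups of line by size. Alternatives were another pseudocount (0.1), filter (none, or 5 TPM), scaling (median of ratios, quantile) and leaving out each library. A density block was an alternative for the line, and a density slope for the size groups.

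The members, roles and lists, and the split into smaller and larger spheroids, were chosen with earlier results of these data known. Named genes are 22 fixed symbols, 19 of them found, the called members with the largest line and size differences, and the 3 with the smallest interaction p, none of them called. Of the 91 members, 86 have a name in the RefSeq table of AstMex3_surface. The genes mki67, incenp, cenpa, cenpf, kif18b and kifc1 are not among the 91 and are not analysed here, nor are promoter or protein sequences. Deviations from the line means correlated between libraries of the same density (0.51, 0.49, 0.64 and 0.31), each above 0.1. Neighbouring densities of the same size group also correlated. The values were 0.52 for SFL at 25000 with CFL at 10000, and 0.48 for the converse. They were 0.39 for SFL at 100000 with CFL at 50000, and 0.38 for the converse. Between 25000 and 50000 cells, the neighbours in different size groups, the values were negative. SFL at 25000 with CFL at 50000 gave -0.53, and the converse gave -0.54. Libraries were paired by density only in the alternative with a density block, and the main line fit did not pair them. The labels state no shared batch.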

Additional observations from a re-analysis of the deposited data

Results flagged for a closer look

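For the 34 named genes, the 4 libraries of each line were examined for a value that stands apart from the other 3, in 68 sets of 4 values; the other members were not examined. Chance gives such a value in about 1 of 20 sets, and 2 were found. For smc4, the condensin ATPase, SFL at 25000 cells was at 29.33 TPM while the other SFL libraries were at 17.17 to 18.55 TPM; every CFL library was above it. For kif1aa, SFL at 10000 cells was listed at 0.06 TPM and the other SFL libraries at 0, a difference too small to interpret.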

How the results depend on the processing

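Over the 34 named genes, 515 of 570 alternative values of the line difference and 466 of 570 of the size difference kept their direction and their side of the threshold. Size counts depended on scaling and on single libraries. Members higher in larger spheroids numbered 0 as deposited, 7 after median-of-ratios and 7 after quantile scaling, and members lower 51, 21 and 17; the slope on density called 0 members and 0 of all genes, where the 2-group comparison called 6845. Within SFL the 36 members became 11, 5 and, with no filter, 17, and the 3716 genes became 1885 after quantile scaling and 1943 with no filter; within CFL the 36 members became 14 and 13. Leaving out 1 library gave 39 to 53 members higher and 8 to 9 lower in CFL, 43 to 52 lower and 0 to 1 higher with size, 0 to 36 called within SFL (0 to 4377 of all genes), 2 to 36 within CFL (437 to 5284), and 0 to 0 members and 0 to 5 genes for the interaction. A block on density gave 55 members higher and 9 lower in CFL, and 58 and 9 with rescaling as well; beyond the 8 members named with the line comparison, the block changed no line call of a member. The size difference changed sign after quantile and median-of-ratios scaling in ccnb2 (0.35, 0.22), aurkb (0.0275, 0.0100), birc5a (0.33, 0.27), plk4 (0.33, 0.15), tpx2 (0.0040, 0.0100), nuf2 (0.0323, 0.0691) and kif13bb (0.14, 0.0301), after quantile scaling in ndc80 (0.0522) and after median of ratios in smc4 (0.0852). With 1 library left out it ranged from -0.2809 to 0.0220 in ccnb2, above 0 without SFL at 25000, and from -0.0107 to 0.33 in cenpw, below 0 without SFL at 10000. The line difference ranged from -0.5081 to 0.0688 in kif3b, above 0 without CFL at 50000 or SFL at 100000 (0.0618), and from -0.1808 to 0.22 in KIF1C (ENSAMXG00000006258), above 0 without CFL at 50000, SFL at 100000 (0.15) or SFL at 25000 (0.10) and, with or without the block, after median of ratios (0.0144). The cause was not tested. With the 5 TPM filter, 8 named genes gave no value.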
